A study of Homo sapiens with 8 samples.

Results

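Genes of cholesterol and fatty acid synthesis were examined in T47D, a breast cancer cell line of luminal type that carries the estrogen receptor, after siRNA against 17β-HSD1 and after estradiol. 17β-HSD1, encoded by HSD17B1, is the enzyme that reduces estrone to estradiol. The 32 listed genes were taken from textbook knowledge of the pathway, with earlier results of these arrays known. A gene was read from its probe set with exactly 1 symbol in the platform annotation, and from the set with the highest mean where there were several. This gave values for 31 of the 32 genes, out of 18417 genes measured in the same way. FDFT1, squalene synthase, was not analysed here.

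The samples were 8 Affymetrix Gene 1.0 ST arrays for human transcripts, in 4 groups of 2. The groups were 17β-HSD1 siRNA with 1 nM estradiol (E2), 17β-HSD1 siRNA with ethanol vehicle, control siRNA with E2, and control siRNA with vehicle. All cells were held in charcoal-treated, steroid-deprived medium from 2 days before transfection, and this medium was used throughout. All received 200 nM siRNA, which was a mix of 3 siRNAs against 17β-HSD1 or a scrambled control, and E2 or vehicle was added 48 h later for 2 days. The growth medium contained bovine insulin, per the labels. Replicates 1 and 2 came from 2 independent cell culture experiments. The cells were harvested as bulk cultures, so fewer cells with a transcript and less of it per cell cannot be told apart.

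Cholesterol is built from acetyl-CoA through mevalonate and squalene, and long-chain fatty acids from the same precursor through acetyl-CoA carboxylase and fatty acid synthase. The SREBP transcription factors, released from the endoplasmic reticulum by SCAP when sterols are low and held back by INSIG proteins, switch on both sets of enzymes. When sterols are plentiful, oxysterols activate the liver X receptors (LXRs), which switch on the exporters ABCA1 and ABCG1 and also SREBF1.

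The cell line was checked against its markers. The 7 luminal markers averaged between 8.68 (ESR1) and 13.39 (KRT8) on the log2 signal scale, where array medians were 7.25 to 7.37. Markers of other cell types averaged 4.77 to 7.65 for liver (APOA1 highest), 4.62 to 7.07 for immune cells (CD14 highest), 4.42 to 7.48 for adipocytes (PLIN1 highest), 5.00 to 8.86 for fibroblasts (COL1A1 highest) and 6.99 to 7.81 for basal cells (KRT14 highest). Levels of different probe sets are not on a common scale. HSD17B1 read 8.32 and 8.37 with 17β-HSD1 siRNA in E2 and 8.41 and 8.36 in vehicle, against 9.12 and 8.56 with control siRNA in E2 and 9.35 and 8.66 in vehicle. All 4 knockdown arrays lay below all 4 control arrays, but the averaged difference of -0.56 ± 0.16 (SE) had a limma adjusted p of 0.221. Replicate 1 of 17β-HSD1 siRNA in vehicle stood apart, with a mean correlation of 0.973 with the other arrays, against 0.981 to 0.988 for the rest. All 5 interferon genes examined (IFI44L, IFIT3, RSAD2, OASL and IFITM1) rose in the averaged knockdown, where 0.206% of all genes did, with a median log2 difference of 1.97. Of the luminal markers 6 of 7 lay below 0 in the averaged knockdown (median -0.25), where 45.7% of all genes did, and FOXA1 lay above 0. Basal cell markers lay above 0 for 5 of 5 (median 0.09), where 54.3% of all genes did. Markers of adipocytes, liver, fibroblasts and immune cells did so for 4 of 6, 3 of 5, 3 of 5 and 3 of 4. In these lists 0 genes were called. Of 5 cell cycle genes (MKI67, CCNB1, PLK1, CCNA2 and CDC20), 3 fell in the averaged knockdown, where 0.239% of all genes did, and all 5 rose with E2, where 1.4% did. Whether these shifts had a part in the lipid gene differences was not tested.

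Promoter sequence from RefSeq (GRCh38.p14) was matched to 27 of the 32 genes by symbol. The 250 bases before each listed start were searched on both strands for letters that factors of this pathway are known to bind. The CCAAT box (CCAAT), bound by NF-Y, which acts beside SREBP at sterol genes, was found in 18 of the 27 genes. It was in 61.1% of their 36 windows, against 32.0% of all 35116 windows. The GC box (GGGCGG), bound by Sp1, was in 26 genes and 88.9% of the windows, against 42.6% of all windows. A sterol response element core (TCACNCCA) was in MSMO1, MVK and SREBF2, or 8.33% of windows against 3.2% of all. The E-box (CACGTG), which reads the same on both strands and which SREBP-1 can also bind, was in ABCA1, INSIG1, SC5D and SCAP, or 13.9% of windows against 6.34%. A loosened form of DR4, the direct repeat that LXRs bind (AGGTNA and NGGTNA with any 4 bases between them), was found in ABCA1 alone among these genes and in 0.194% of all windows. The palindromic estrogen response element (GGTCA and TGACC with any 3 bases between them) was in none of them and in 0.0399% of all windows. Windows of a gene can overlap and so count a site again, as for the E-box of SC5D and the CCAAT boxes of ACLY. A match is a run of letters and was not tested as a binding site.

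The promoters below are those of the gene with the smallest p in the E2 comparison (ABCA1), of 2 genes with the smallest p in the knockdown comparison (EBP and ELOVL6), and of SREBF2, which holds a sterol response element core. Capitals mark every match to a searched motif, and no match overlapped a different motif in these promoters.
ABCA1, chr9:104928156-104928405, - strand: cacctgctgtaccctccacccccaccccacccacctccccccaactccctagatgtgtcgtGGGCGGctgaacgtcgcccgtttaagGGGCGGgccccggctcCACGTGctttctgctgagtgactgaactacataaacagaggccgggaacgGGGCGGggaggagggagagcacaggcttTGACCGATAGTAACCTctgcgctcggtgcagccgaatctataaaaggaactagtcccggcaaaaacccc
EBP, chrX:48521558-48521807, + strand: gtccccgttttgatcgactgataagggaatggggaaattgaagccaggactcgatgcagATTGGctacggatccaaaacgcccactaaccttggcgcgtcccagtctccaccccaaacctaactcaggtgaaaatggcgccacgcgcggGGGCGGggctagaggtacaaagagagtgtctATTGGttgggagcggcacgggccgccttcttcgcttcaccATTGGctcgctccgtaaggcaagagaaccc
ELOVL6, chr4:110198616-110198865, - strand: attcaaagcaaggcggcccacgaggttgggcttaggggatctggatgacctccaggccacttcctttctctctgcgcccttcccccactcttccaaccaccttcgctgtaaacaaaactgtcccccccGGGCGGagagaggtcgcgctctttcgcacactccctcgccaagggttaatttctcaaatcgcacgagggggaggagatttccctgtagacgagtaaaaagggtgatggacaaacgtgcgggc
SREBF2, chr22:41832855-41833104, + strand: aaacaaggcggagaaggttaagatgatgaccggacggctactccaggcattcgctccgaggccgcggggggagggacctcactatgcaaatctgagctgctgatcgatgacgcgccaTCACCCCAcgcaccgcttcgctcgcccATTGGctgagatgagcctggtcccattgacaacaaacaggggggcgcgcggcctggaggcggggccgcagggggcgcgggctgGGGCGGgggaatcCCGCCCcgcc
In ABCA1 the DR4 match lay on the opposite strand, 69 to 54 bases before the listed start. The sterol response element core of SREBF2 lay 133 to 126 bases before its start. EBP had 3 CCAAT matches, all on the opposite strand, and ELOVL6 had a single GC box.

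The 31 genes varied little over the arrays. The gap between the highest and the lowest of the 8 arrays was widest for ACAT2 (1.51 on the log2 scale), ABCA1 (1.24), EBP (1.06), ELOVL6 (1.04) and MSMO1 (1.01). It was narrowest for SCAP (0.29), the sterol sensor that escorts SREBP, and for ACACA and MVK (0.32 each).

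**Figure D1:**
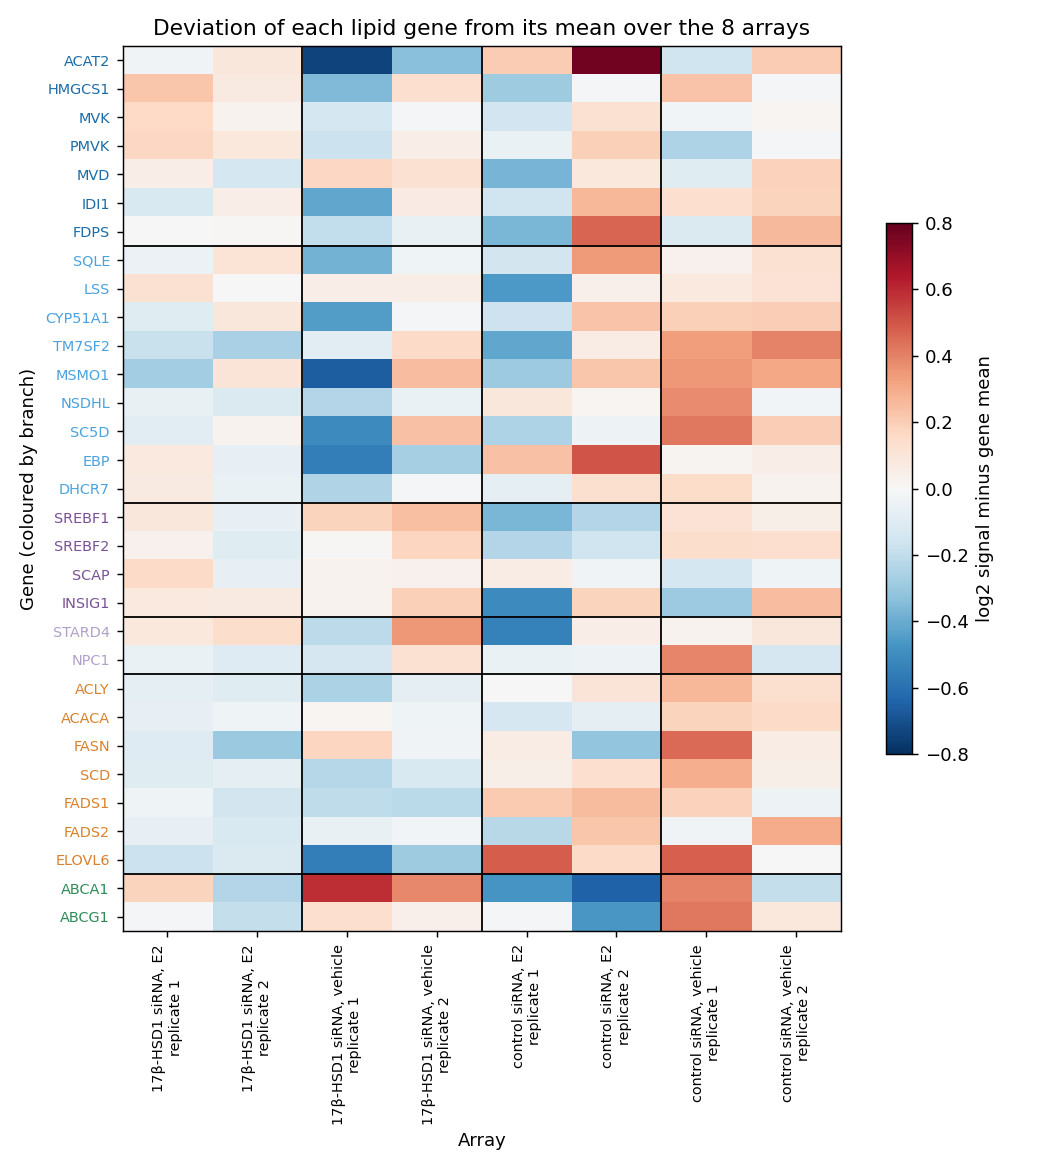
Deviation of the log2 signal of each of the 31 genes (rows, coloured by branch) from its mean over the 8 arrays (columns, 4 groups of 2 replicates); red is above the gene's mean and blue below. Many sterol genes are blue in replicate 1 of 17β-HSD1 siRNA with vehicle and in replicate 1 of control siRNA with E2, while ABCA1 is lowest in the 2 control siRNA, E2 arrays.

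The first question was what 17β-HSD1 siRNA changed in each medium. None of the 31 genes passed a limma adjusted p of 0.05 in E2, in vehicle or in the average of both, where 0%, 0% and 0.445% of all genes did. At an unadjusted p below 0.05 there were 4 genes in E2, 6 in vehicle and 7 in the average, against 4.53%, 5.22% and 9.17% of all genes. In the average, all 7 fatty acid genes had differences below 0, with a median of -0.25, where 45.7% of all genes were below 0 and the median of all genes was 0.01. Outside the members, 17 other fatty acid synthesis genes had 13 below 0 and a median of only -0.05. Of the 16 sterol synthesis genes 11 were below 0, with a median of -0.17, and all 4 SREBP control genes were above 0, with a median of 0.13. ELOVL6, ACLY, SCD and the sterol dehydrogenase gene NSDHL had all 4 knockdown arrays below all 4 control arrays, where 2.17% of all genes did, and 0 members had them all above, where 2.12% did.

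ELOVL6, which elongates palmitate to stearate, had the smallest p of the 31 genes for the knockdown in vehicle and in the average, while ABCA1 had it in E2. It read 7.47 and 7.53 with 17β-HSD1 siRNA in E2 and 7.09 and 7.36 in vehicle, against 8.13 and 7.80 with control siRNA in E2 and 8.12 and 7.65 in vehicle. Each knockdown array was below each control array. A knockdown array in vehicle, at 7.09, lay below the array medians, and how far it stands above background is unknown, so no fold is given. The averaged difference was -0.56 ± 0.14 (SE, 4 arrays against 4), with a 95% interval of -0.86 to -0.26 and an adjusted p of 0.122. It was -0.46 ± 0.19 in E2 (adjusted p = 1) and -0.66 ± 0.19 in vehicle (adjusted p = 0.585). The control arrays differed among themselves, with replicate 2 minus replicate 1 at -0.33 in E2 and -0.47 in vehicle.

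The other fatty acid genes lay closer to 0. FADS1, the Δ5 desaturase of polyunsaturated fatty acids, read 8.94 and 8.82 with 17β-HSD1 siRNA in E2 and 8.77 and 8.76 in vehicle, against 9.18 and 9.22 with control siRNA in E2 and 9.16 and 8.93 in vehicle. The averaged difference of FADS1 was -0.30 ± 0.10 (adjusted p = 0.323), and 1 knockdown array in E2 reached above the lowest control array. ACLY, which makes cytosolic acetyl-CoA from citrate, read 11.56 and 11.53 with 17β-HSD1 siRNA in E2 and 11.38 and 11.55 in vehicle, against 11.63 and 11.73 with control siRNA in E2 and 11.90 and 11.75 in vehicle. Its 4 knockdown arrays were below its 4 control arrays by a narrow margin, and the averaged difference was -0.25 ± 0.10 (adjusted p = 0.462). SCD, which makes oleate, had -0.26 ± 0.10 (adjusted p = 0.435), also with no overlap of the arrays. FASN, fatty acid synthase itself, had -0.13 ± 0.13 and ACACA, acetyl-CoA carboxylase, -0.06, which is within the spread between replicates.

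Within sterol synthesis, ACAT2 and EBP stood lower with 17β-HSD1 siRNA in both media. ACAT2 encodes the cytosolic thiolase that makes acetoacetyl-CoA, the first step towards mevalonate. Its signal was 9.06 and 9.18 with 17β-HSD1 siRNA in E2 and 8.35 and 8.75 in vehicle, against 9.29 and 9.86 with control siRNA in E2 and 8.93 and 9.29 in vehicle. Within each medium the siRNA groups did not overlap. The averaged difference was -0.51 ± 0.15, 0.704-fold, with an interval of -0.84 to -0.17 and an adjusted p of 0.233. With the replicate number as a block, adjusted p = 0.0483 and ACAT2 was the only member called, where 0.668% of all genes were called lower. With replicates 1 and 2 of the vehicle-treated control siRNA cells exchanged in the block, ACAT2 was not called.

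EBP, the sterol isomerase that moves the ring double bond late in the pathway, read 10.41 and 10.27 with 17β-HSD1 siRNA in E2 and 9.78 and 10.07 in vehicle, against 10.57 and 10.84 with control siRNA in E2 and 10.36 and 10.39 in vehicle. The groups did not overlap within either medium. The averaged difference was -0.41 ± 0.12, 0.754-fold, with an interval of -0.66 to -0.15 (adjusted p = 0.196).

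For the sterol enzymes in vehicle, the size of the difference depended on 1 array. In vehicle 24 of the 31 members were below 0 and 7 above, where 44.9% and 55.1% of all genes were. The luminal markers were also below 0 for 6 of 7 (median -0.38), and the other pathway genes for 40 of 65 (median -0.03). Markers of adipocytes, liver and fibroblasts were above 0 for 5 of 6, 4 of 5 and 4 of 5. Those of immune and basal cells were above 0 for 3 of 4 and 5 of 5. Of the sterol genes 14 of 16 were below 0, with a median of -0.30, and 10 had knockdown arrays below both control arrays, a pattern seen in 12% of all genes. Without replicate 1 of 17β-HSD1 siRNA in vehicle, the array that stood apart, the sterol median was -0.09, while the fatty acid median was -0.29 against -0.28 with all arrays. MSMO1, a C4-methyl sterol oxidase, shows the gap: its 17β-HSD1 siRNA arrays in vehicle read 8.90 and 9.81, against 9.91 and 9.87 for control siRNA in vehicle. SC5D, the sterol desaturase of the late pathway, read 10.47 and 11.22 with 17β-HSD1 siRNA in vehicle, against 11.40 and 11.18 with control siRNA. The differences in vehicle were -0.54 ± 0.27 for MSMO1 and -0.45 ± 0.22 for SC5D, with adjusted p of 0.94 and 0.93.

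In E2 17 of the 31 members were below 0 and 14 above, where 50.8% and 49.2% of all genes were. Knockdown arrays lay below both control arrays for 7 members and above both for 6, against 19.9% and 18.3% of all genes. The sterol genes were divided, with 10 of 16 below 0 and a median of -0.04. This value turned on the control arrays, since it was -0.18 without replicate 1 of control siRNA in E2 and 0.19 without replicate 2. HMGCS1, the enzyme that makes HMG-CoA, differed by 0.30 ± 0.19 in E2 and by -0.22 ± 0.19 in vehicle.

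Of the regulators, SREBF1, which encodes SREBP-1, read 8.96 and 8.80 with 17β-HSD1 siRNA in E2 and 9.04 and 9.11 in vehicle, against 8.50 and 8.63 with control siRNA in E2 and 8.99 and 8.92 in vehicle. Its averaged knockdown difference was 0.22 ± 0.10 (adjusted p = 0.549). SREBF2, which encodes the main activator of sterol synthesis, had 0.06 ± 0.10, and INSIG1, itself an SREBP target, 0.19 ± 0.16. In export, ABCA1, which loads cholesterol onto apolipoprotein A-I, read 7.59 and 7.17 with 17β-HSD1 siRNA in E2 and 8.00 and 7.80 in vehicle, against 6.94 and 6.76 with control siRNA in E2 and 7.80 and 7.22 in vehicle. Its averaged difference was 0.46 ± 0.15, with an interval of 0.13 to 0.79 (adjusted p = 0.289). For ABCA1 both control siRNA arrays in E2 lay below the array medians, as did the 17β-HSD1 siRNA array in E2 at 7.17. The control siRNA array in vehicle at 7.22 did too, so no fold is given. ABCG1, which exports cholesterol to HDL, had -0.01 ± 0.13 (adjusted p = 0.995). The sterol transport genes STARD4 and NPC1 had 0.18 and -0.08, with adjusted p of 0.868 and 0.946.

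**Figure D2:**
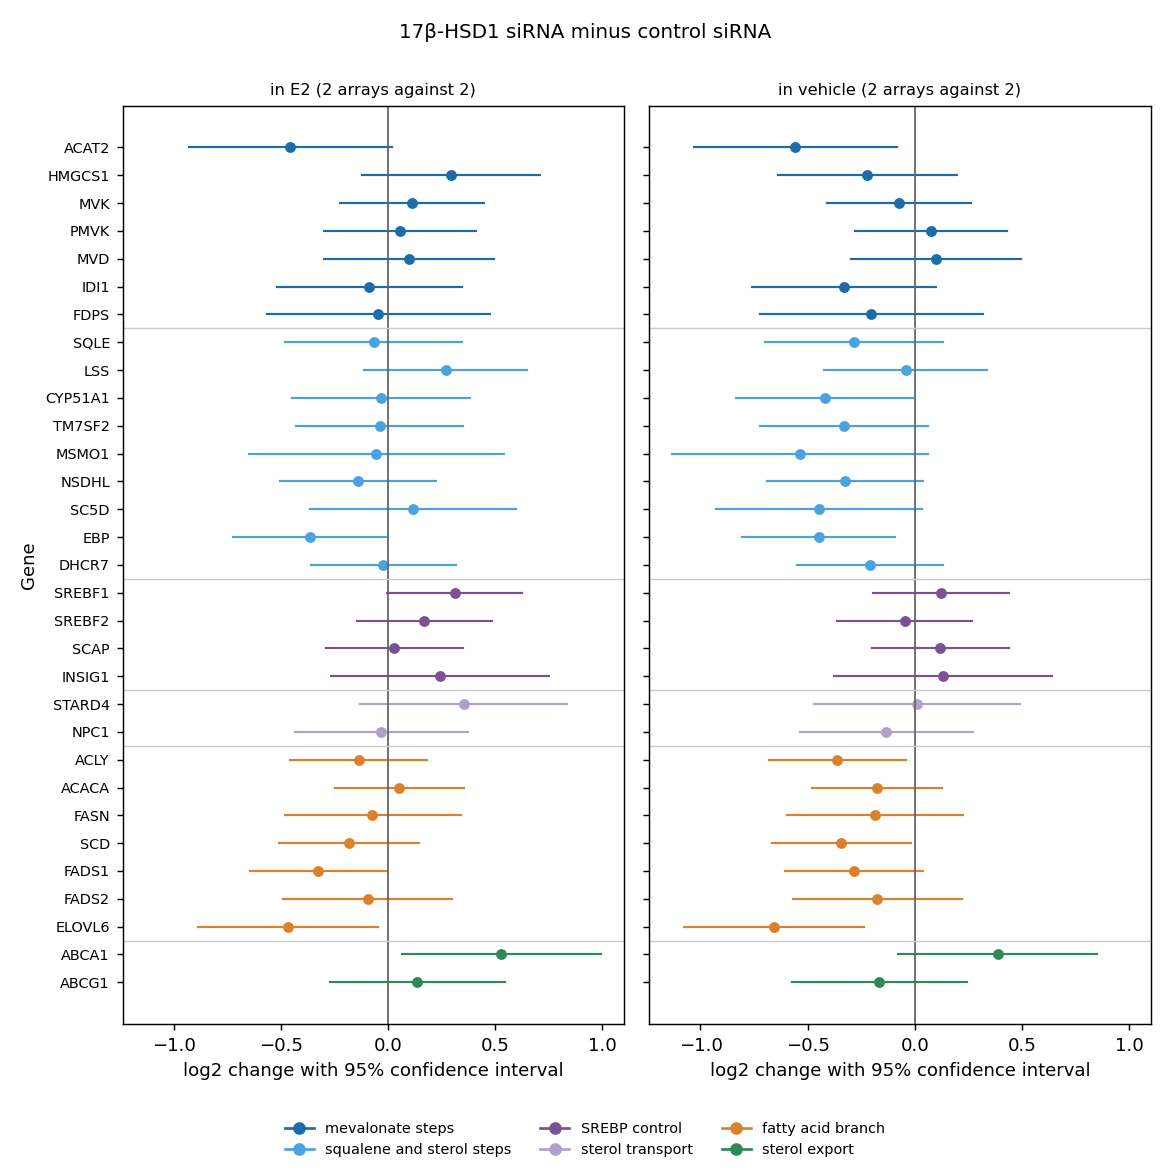
Difference in log2 signal between 17β-HSD1 siRNA and control siRNA in E2 (left) and in vehicle (right) for the 31 genes; points are limma estimates from 2 arrays against 2, bars are 95% confidence intervals and colours are branches. Intervals of ELOVL6 and EBP lie below 0 in both media, the interval of ABCA1 lies above 0 in E2, and no gene passes after adjustment over all genes.

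The second question was what E2 changed with each siRNA. None of the 31 genes passed with 17β-HSD1 siRNA, with control siRNA or in the average, where 0.282%, 0.0869% and 1.64% of all genes did. At an unadjusted p below 0.05 there were 3, 5 and 8 genes, against 4.43%, 6.09% and 8.9% of all genes. With control siRNA 0.0706% of all genes were called higher and 0.0163% lower. With 17β-HSD1 siRNA 20 of 31 members were above 0 and 11 below, where 43% and 57% of all genes were, and with control siRNA 24 were below 0, where 52.4% were. With 17β-HSD1 siRNA the E2 arrays lay above both vehicle arrays for 8 members and below both for 7, where 12.6% and 12.1% of all genes did. With control siRNA they lay above for 3 members and below for 12, where 16.7% and 19% of all genes did. Sterol genes were above 0 for 14 of 16 with 17β-HSD1 siRNA (median 0.14) and below 0 for 12 of 16 with control siRNA (median -0.12). Without replicate 1 of 17β-HSD1 siRNA in vehicle the first median was 0.01, and without replicate 1 of control siRNA in E2 the second was 0.04.

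In the average both export genes, 3 of 4 SREBP control genes and both transport genes were below 0, where 58.1% of all genes were. Of the sterol synthesis genes 9 of 16 were above 0 (median 0.03), where 41.9% of all genes were, and of the fatty acid genes 3 of 7 (median -0.03), against a median of -0.02 for all genes.

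ABCA1 had the smallest p of the members in the average. Its arrays, given above, were lower in E2 than in vehicle within each siRNA with no overlap. Across siRNAs they overlapped, since a 17β-HSD1 siRNA array in E2 at 7.59 was above a control siRNA array in vehicle at 7.22. Both control siRNA arrays in E2 lay below the array medians, as did a 17β-HSD1 siRNA array in E2 at 7.17. The control siRNA array in vehicle at 7.22 did too, so no fold is given. The averaged E2 difference was -0.59 ± 0.15 (4 arrays against 4), with an interval of -0.92 to -0.26 and an adjusted p of 0.098. It was -0.52 ± 0.21 with 17β-HSD1 siRNA (adjusted p = 0.977) and -0.66 ± 0.21 with control siRNA (adjusted p = 0.417). With the replicate block, adjusted p = 0.0156, where 0.592% of all genes were called lower. Without the block, leaving out single arrays gave averaged differences of -0.735 to -0.441. With replicates 1 and 2 of the vehicle-treated control siRNA cells exchanged in the block, 0 members were called.

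ABCG1 read 7.65 and 7.48 with 17β-HSD1 siRNA in E2 against 7.80 and 7.71 in vehicle. With control siRNA it read 7.65 and 7.20 in E2 against 8.09 and 7.75 in vehicle. All 4 E2 arrays were below all 4 vehicle arrays, a pattern found in 2.08% of all genes, and the averaged difference was -0.34 ± 0.13 (adjusted p = 0.407). For SREBF1, also an LXR target, the averaged E2 difference was -0.29 ± 0.10 (adjusted p = 0.311), with -0.20 ± 0.14 after 17β-HSD1 siRNA and -0.39 ± 0.14 after control siRNA. SREBF2 had -0.23 ± 0.10 (adjusted p = 0.542). SCAP had 0.06 and INSIG1 -0.09, each within the spread between replicates.

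Among the sterol enzymes ACAT2 was higher in E2 than in vehicle with each siRNA, though the control siRNA arrays met at 9.29. Its averaged E2 difference was 0.52 ± 0.15, 1.43-fold, with an interval of 0.18 to 0.85 (adjusted p = 0.183). With the replicate block, adjusted p = 0.0294, where 1.94% of all genes were called higher. EBP had 0.37 ± 0.12, 1.29-fold (adjusted p = 0.221), with its E2 arrays above its vehicle arrays for each siRNA. TM7SF2, a sterol reductase of the late pathway, leaned the other way. It read 9.81 and 9.73 with 17β-HSD1 siRNA in E2 against 9.90 and 10.15 in vehicle. With control siRNA TM7SF2 read 9.57 and 10.05 in E2 against 10.32 and 10.39 in vehicle. Its averaged difference was -0.40 ± 0.13, 0.759-fold (adjusted p = 0.232).

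FASN was the fatty acid gene with the smallest p for E2. It read 11.28 and 11.09 with 17β-HSD1 siRNA in E2 against 11.55 and 11.35 in vehicle, and 11.44 and 11.06 with control siRNA in E2 against 11.84 and 11.44 in vehicle. Its averaged difference was -0.33 ± 0.13, 0.796-fold (adjusted p = 0.449). SCD had 0.01 ± 0.10 and ACLY -0.03 ± 0.10, with intervals of -0.22 to 0.24 and -0.26 to 0.20.

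**Figure D3:**
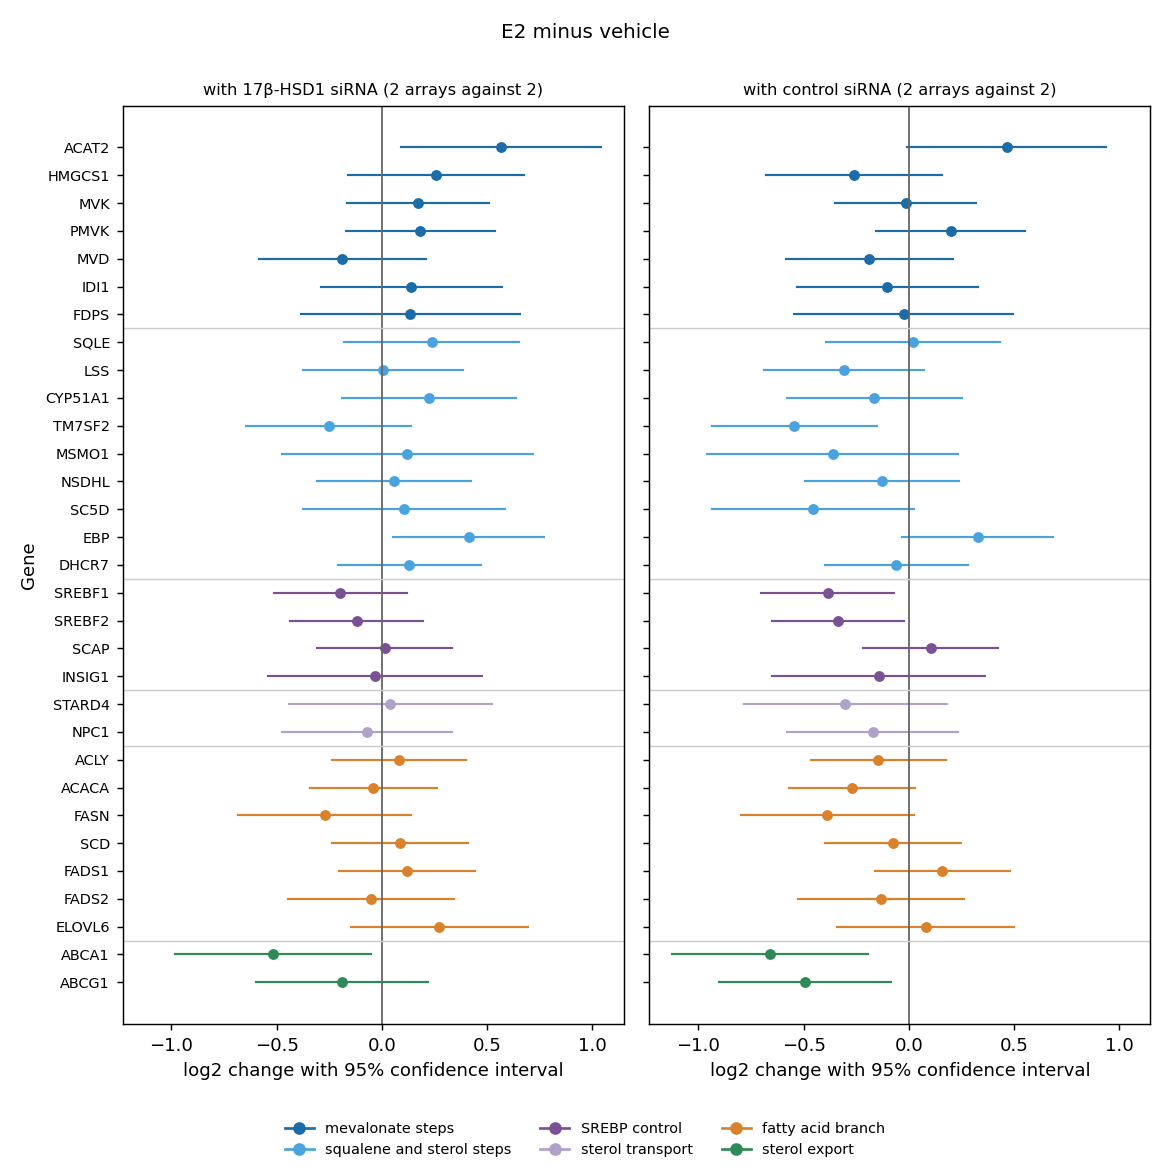
Difference in log2 signal between E2 and vehicle with 17β-HSD1 siRNA (left) and with control siRNA (right) for the 31 genes; points are limma estimates from 2 arrays against 2, bars are 95% confidence intervals and colours are branches. ABCA1 lies below 0 in both panels and ACAT2 and EBP above 0, and no gene passes after adjustment over all genes.

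**Figure D4:**
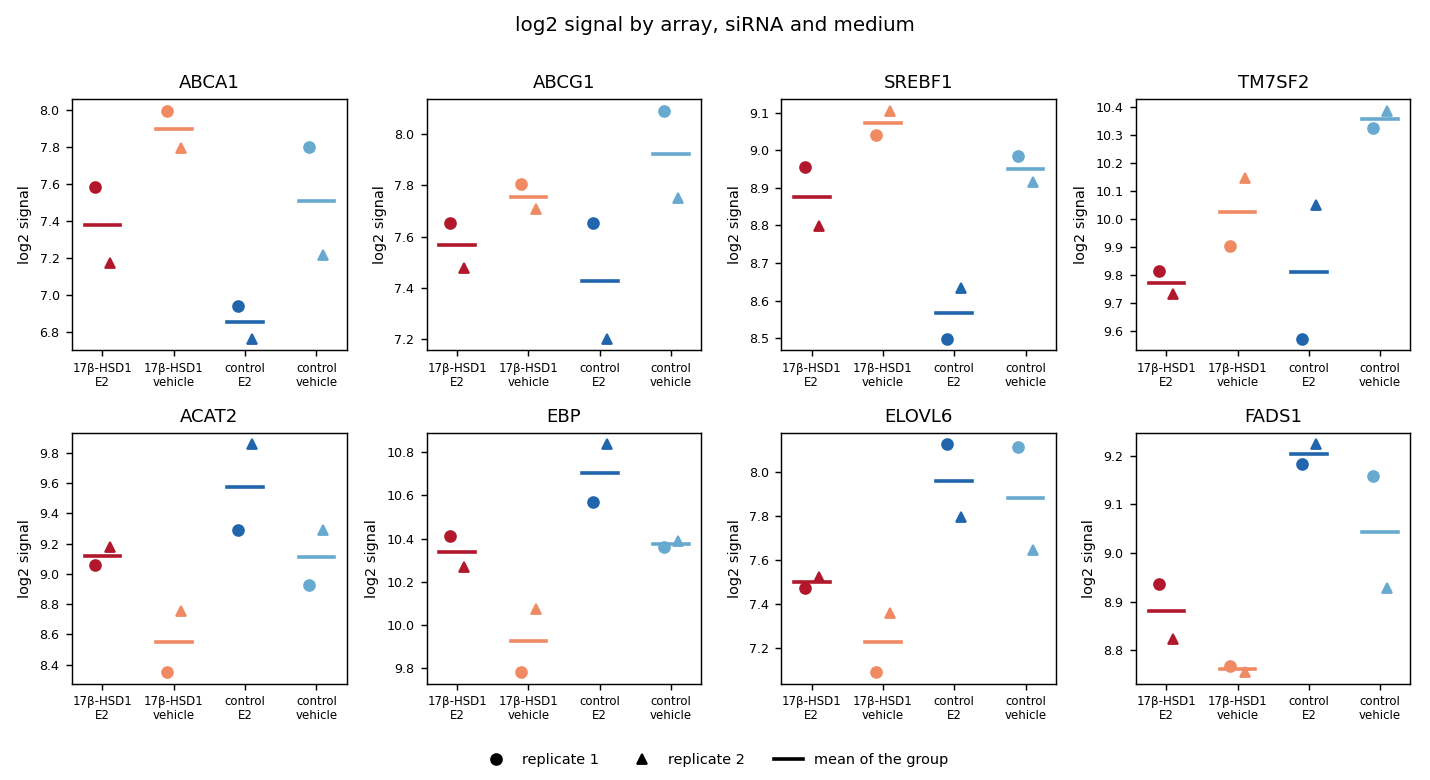
log2 signal of 8 genes in each array, by siRNA and medium; circles are replicate 1, triangles replicate 2, and lines the mean of the 2 arrays. ABCA1 is lower in E2 than in vehicle with each siRNA, and ACAT2, EBP and ELOVL6 are lower with 17β-HSD1 siRNA than with control siRNA in each medium; each panel has its own axis range.

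The interaction tested if the siRNA altered the E2 response, as the E2 difference with 17β-HSD1 siRNA minus that with control siRNA. None of the 31 genes passed, where 0% of all genes did, and none had an unadjusted p below 0.05, against 0.592% of all genes. Of the 31 genes 27 had values above 0, with a median of 0.19, where 50.3% of all genes were above 0. The other pathway genes were above 0 for 41 of 65 (median 0.06). Luminal markers were above 0 for 7 of 7 (median 0.20), so the shift was not particular to the members. Markers of liver, immune cells and adipocytes were above 0 for 0 of 5, 0 of 4 and 3 of 6. Those of fibroblasts and basal cells were above 0 for 1 of 5 each. The median of the 31 genes was 0.09 with 25 genes above 0 without replicate 1 of 17β-HSD1 siRNA in vehicle, and 0.09 with 21 above 0 without replicate 1 of control siRNA in E2. It was 0.28 with 28 above 0 without replicate 2 of control siRNA in E2. HMGCS1 read 11.10 and 10.95 with 17β-HSD1 siRNA in E2 against 10.52 and 11.01 in vehicle, and 10.59 and 10.87 with control siRNA in E2 against 11.11 and 10.87 in vehicle. SC5D read 10.89 and 11.01 with 17β-HSD1 siRNA in E2 against 10.47 and 11.22 in vehicle, and 10.73 and 10.94 with control siRNA in E2 against 11.40 and 11.18 in vehicle. E2 and vehicle arrays overlapped with 17β-HSD1 siRNA for both genes and did not with control siRNA, for HMGCS1 by a narrow margin. The smallest p values belonged to HMGCS1 (0.52 ± 0.27), SC5D (0.56 ± 0.31), CYP51A1 (0.39 ± 0.27), the lanosterol demethylase, and LSS (0.31 ± 0.25), lanosterol synthase, each with an adjusted p of 1. Leaving out single arrays gave 0.27 to 0.76 for HMGCS1, 0.19 to 0.93 for SC5D, 0.17 to 0.61 for CYP51A1 and 0.064 to 0.56 for LSS. CYP51A1 read 10.06 and 10.25 with 17β-HSD1 siRNA in E2 against 9.71 and 10.15 in vehicle. With control siRNA CYP51A1 read 9.99 and 10.39 in E2 against 10.35 and 10.36 in vehicle. A second, dimmer probe set of CYP51A1 had an averaged knockdown difference of -0.18 and an averaged E2 difference of -0.10, against -0.23 and 0.03 for the one used, so the sets disagree in sign for E2. In the set used the lowest array was again replicate 1 of 17β-HSD1 siRNA in vehicle. LSS was lowest in replicate 1 of control siRNA with E2, at 9.22, while its other arrays lay between 9.68 and 9.80. The 95% interval for HMGCS1 ran from -0.07 to 1.11.

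The branches were then set side by side, as a description with no test. For the knockdown average, the sterol median minus the fatty acid median was 0.08, and the sterol median minus the export median was -0.39. For the E2 average these median differences were 0.06 and 0.49. In single arrays, the same differences taken between branch means had SDs of 0.18 and 0.36 between replicates. Neither SD is that of a median difference averaged over arrays, so neither can decide if these median differences exceed their spread. Without single arrays the sterol minus export difference ran from -0.56 to -0.21 for the knockdown and from 0.32 to 0.65 for E2. Under other settings it reached -0.16 and 0.37. These values came from the fit of only the probe sets above the median mean. That fit left out ABCA1, so ABCG1 alone stood for export. With all probe sets the sterol minus export difference rests on 2 export genes, and the knockdown and E2 comparisons use the same 8 arrays. In the knockdown only ABCA1 of these 2 lay away from 0.

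Per array, the mean deviation of the fatty acid genes was -0.09 and -0.13 with 17β-HSD1 siRNA in E2 and -0.16 and -0.11 in vehicle, against 0.06 and 0.07 with control siRNA in E2 and 0.26 and 0.09 in vehicle. All 4 knockdown arrays were below all 4 control arrays. The means of 17 other fatty acid synthesis genes overlapped, at -0.088 to 0.048 with 17β-HSD1 siRNA and -0.009 to 0.095 with control siRNA. The sterol genes deviated by 0.00 and 0.00 with 17β-HSD1 siRNA in E2 and by -0.31 and 0.02 in vehicle, against -0.17 and 0.21 with control siRNA in E2 and 0.11 and 0.14 in vehicle. Here the siRNA groups overlapped in E2. The export genes deviated by 0.08 and -0.21 with 17β-HSD1 siRNA in E2 against 0.36 and 0.21 in vehicle, and by -0.24 and -0.56 with control siRNA in E2 against 0.41 and -0.06 in vehicle.

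**Figure D5:**
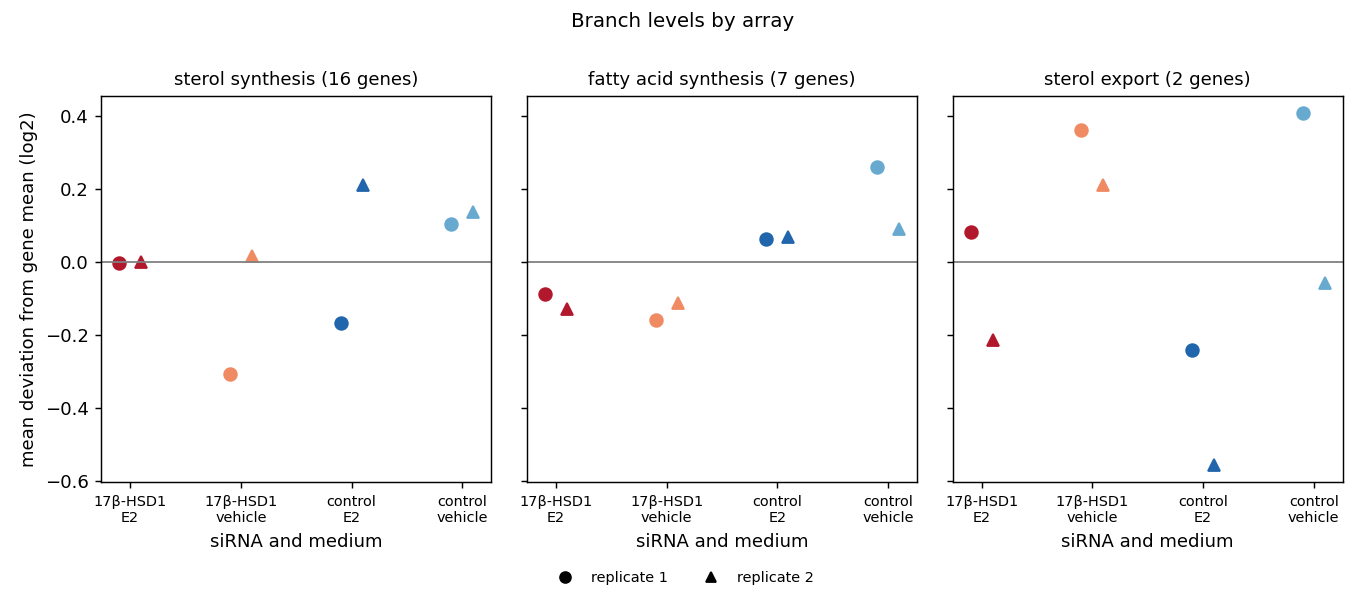
Mean deviation from the gene mean (log2) over the genes of each branch, for each array by siRNA and medium; circles are replicate 1 and triangles replicate 2. The 4 fatty acid means with 17β-HSD1 siRNA, -0.16 to -0.09, all lie below the 4 with control siRNA, 0.06 to 0.26, while the sterol means overlap.

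Replicates of a group also differed. With control siRNA in E2, the sterol genes were higher in replicate 2 than in replicate 1 by a median of 0.41, while the median of all genes was -0.01. FDPS, which makes farnesyl diphosphate, had the widest such gap among the mevalonate enzymes, at 10.01 against 9.18. The median gap of the sterol genes was 0.27 with 17β-HSD1 siRNA in vehicle, 0.04 with control siRNA in vehicle and -0.07 with 17β-HSD1 siRNA in E2. Replicate 2 was the higher one in all 4 groups for ACAT2, IDI1, FDPS, SQLE, CYP51A1 and STARD4. It was the lower one in all 4 groups for FASN, ABCA1 and ABCG1. These 9 of 31 genes are 29% of the members, against 19.7% of all genes with the same sign in every group.

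Other genes of the pathway, 65 measured and not among the 31, were read from the same fit. Of these 3 rose and 1 fell in the E2 average, where 1.4% and 0.244% of all genes did, and none passed in the averaged knockdown. TMEM97, a sterol-regulated membrane protein gene, rose 1.49-fold (0.57 ± 0.10, adjusted p = 0.0142). It read 10.47 and 10.38 with 17β-HSD1 siRNA in E2 against 9.90 and 9.88 in vehicle, and 10.83 and 10.94 with control siRNA in E2 against 10.30 and 10.27 in vehicle. LRP8, a lipoprotein receptor gene, read 8.18 and 8.38 with 17β-HSD1 siRNA in E2 against 7.99 and 7.75 in vehicle, and 8.55 and 8.72 with control siRNA in E2 against 7.87 and 8.00 in vehicle. LRP8 rose 1.47-fold (0.55 ± 0.11, adjusted p = 0.0326), and ELOVL2, an elongase of polyunsaturated fatty acids, by 0.97 ± 0.16 on the log2 scale (adjusted p = 0.0136). ELOVL2 read 6.66 and 6.66 with 17β-HSD1 siRNA in E2 against 6.07 and 5.79 in vehicle, and 6.88 and 7.71 with control siRNA in E2 against 5.98 and 6.17 in vehicle. All values of ELOVL2 except the 7.71 with control siRNA in E2 lay below the array medians. How far they stand above background is unknown, so no fold is given. All 4 E2 arrays of TMEM97, LRP8 and ELOVL2 were above all 4 vehicle arrays, where 2.99% of all genes were. INSIG2, the second INSIG protein gene, fell to 0.613-fold (-0.71 ± 0.15, adjusted p = 0.0491).

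INSIG2 read 9.07 and 9.17 with 17β-HSD1 siRNA in E2 against 9.12 and 9.85 in vehicle. With control siRNA INSIG2 read 8.11 and 8.36 in E2 against 9.19 and 9.38 in vehicle. Its groups overlapped with 17β-HSD1 siRNA but not with control siRNA. The E2 difference of INSIG2 was -0.365 with 17β-HSD1 siRNA and -1.05 with control siRNA, so the averaged fold joins unlike values. Its interaction was 0.685, and no pathway gene was called for the interaction. For E2 with control siRNA alone, the replicate block called INSIG2 lower (adjusted p = 0.026) and ELOVL2 higher (adjusted p = 0.0378), where 0.201% and 0.456% of all genes were called in those directions, against adjusted p of 0.104 and 0.0847 without it. The call of INSIG2 in the E2 average was lost when any 1 array other than replicate 1 of 17β-HSD1 siRNA in vehicle was left out, with adjusted p from 0.0561 to 0.207. The LRP8 call was lost in the same way in the same 7 fits, with adjusted p from 0.0567 to 0.211. The calls of TMEM97 and ELOVL2 were lost in 4 and 3 of the 8 fits that left out an array, with adjusted p up to 0.106 and 0.0679.

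The LXR list, other than the 2 exporters, had 6 of 7 measured genes below 0 in the E2 average, where 58.1% of all genes were, with a median of -0.22. Of these 0 passed, where 0.244% of all genes were called lower. MYLIP, an LXR-induced ubiquitin ligase gene, had -0.46 ± 0.12 (adjusted p = 0.097), with all 4 E2 arrays below all 4 vehicle arrays, as for 2.08% of all genes. LPCAT3, an LXR-induced phospholipid acyltransferase gene, had -0.51 ± 0.13 (adjusted p = 0.0847). Fatty acid oxidation genes had a median E2 difference of -0.11, with 0 of 9 called. The smallest p values in the averaged knockdown belonged to TMEM97 (-0.43 ± 0.10, adjusted p = 0.102), the acyl-CoA synthetase gene ACSL1 (0.44 ± 0.11, adjusted p = 0.141), the acetyl-CoA synthetase gene ACSS2 (0.38 ± 0.10, adjusted p = 0.189) and INSIG2 (0.54 ± 0.15, adjusted p = 0.197).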

How the data were processed

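The deposited table holds 33297 probe sets in 8 arrays as log2 values (2.42 to 15.2), a scale read from the values. How the authors summarised, background-corrected and normalized them is not given in the sources used here. Values were tested as deposited. Of the probe sets, 21214 had a symbol in the platform annotation and were tested; 19460 had exactly 1 symbol, checked by gene identifier against RefSeq. No coordinates of the probe sets are used.

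A linear model with a mean for each group was fitted to the 8 arrays (4 residual degrees of freedom) by limma 3.58.1 (R 4.3.3; lmFit, contrasts, eBayes), with Benjamini-Hochberg adjustment over the tested probe sets, with a call at an adjusted p below 0.05. The number of arrays limits the precision. The averaged knockdown fit was also run on simulated data with independent noise. Those data held no difference shared by arrays of the same replicate number and no array that stood apart. That run therefore cannot show how the fit handles either. Intervals are 95% from the moderated fit. The members, lists and tests were chosen with earlier results of these data known. The lists beyond the members cover sterol, SREBP, lipid traffic, fatty acid, glycerolipid, LXR and oxidation genes. Alternatives were the replicate block, other sets of probe sets, quantile normalization, a trended robust spread, averaged probe sets, fits of the 4 arrays compared and leaving out each array. Named genes are members, with array values for the 4 of smallest p per comparison, other pathway genes that were called and up to 2 per list by smallest p.

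The labels number the replicates 1 and 2 from 2 independent cell culture experiments. The main fit did not use this number, and only the block fit treated same-numbered arrays as sharing an experiment. Deviations of same-numbered arrays correlated at 0.31 to 0.44 for 4 pairs of groups. For control siRNA, vehicle they correlated at 0.01 with 17β-HSD1 siRNA, E2 and at -0.20 with 17β-HSD1 siRNA, vehicle. The fit with this number as a block is given where it changes a call.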

Additional observations from a re-analysis of the deposited data

Results flagged for a closer look

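ACACA, acetyl-CoA carboxylase, differed between siRNAs in opposite directions in the 2 media, with no overlap of the arrays in either: 0.053 in E2 and -0.177 in vehicle on the log2 scale. It read 10.24 and 10.27 with 17β-HSD1 siRNA in E2 and 10.32 and 10.27 in vehicle, against 10.17 and 10.24 with control siRNA in E2 and 10.49 and 10.46 in vehicle. The arrays were apart by a narrow margin in E2 (10.241 with 17β-HSD1 siRNA against 10.237 with control siRNA). Such separation was found in 18.3% of all genes, higher, in E2 and in 12% of all genes, lower, in vehicle. The interaction of ACACA was 0.23 ± 0.19 with a limma adjusted p of 1, so the difference between the media did not pass its test.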

How the results depend on the processing

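With 2 arrays per group, few genes of any kind were called. The share of all genes was 0% in each single knockdown and in the interaction, and at most 1.64% elsewhere. A count of 0 among 31 members therefore says little about them. No member gene was called in any of the 7 comparisons. Of 109 recounts of members called under an alternative, the crossed block below included, 106 also gave 0. The exceptions were the replicate block, with 1 member called in the averaged knockdown (ACAT2, lower) and 2 in the averaged E2 effect (ACAT2 higher, ABCA1 lower), and the fit without replicate 2 of control siRNA, vehicle, with 1 (ABCA1); leaving out single arrays thus gave 0 to 1 in the averaged E2 effect. The replicate block changed no other call of a member. A block with crossed numbers for the vehicle-treated control siRNA cells, chosen after seeing the data, called 0 members in each comparison. The sterol minus fatty acid median ranged from -0.18 to 0.19 for the knockdown in vehicle when single arrays were left out (-0.02 with all arrays) and from 0.046 to 0.33 for the knockdown in E2 (0.10). The sterol minus export median ranged from -0.67 to 0.012 for the knockdown in E2 (-0.37) and from 0.079 to 0.77 for E2 with control siRNA (0.46). The extremes 0.33, 0.012 and 0.079 came without replicate 2 of control siRNA, E2, and 0.19 without replicate 1 of 17β-HSD1 siRNA, vehicle. The cause was not tested. Over all genes the averaged knockdown called 82 genes, or 254 with the block, 149 with the crossed block, 0 with all probe sets, named or not, in the fit, and 0 to 158 without single arrays. The averaged E2 effect called 302, or 467 with the block, 86 with all probe sets and 113 to 285 without single arrays. The single comparisons called 0 in each knockdown (29 in vehicle and 34 in E2 with the block, 52 and 1 in fits of the 4 arrays compared, up to 21 and 52 without single arrays). E2 called 16 genes with control siRNA (121 with the block, 50 with it crossed, 35 with a trended robust spread, 27 with the mean of probe sets, 5 after quantile normalization, 1 with all probe sets, 0 in the 4 arrays, 2 to 26 without single arrays). With 17β-HSD1 siRNA E2 called 52 (105 with the block, 30 after quantile normalization, 0 with all probe sets, 89 in the 4 arrays, 0 to 74 without single arrays). With all probe sets in the adjustment, TMEM97, LRP8, ELOVL2 and INSIG2 had adjusted p of 0.0606, 0.12, 0.0876 and 0.202 in the averaged E2 effect. Direction was recomputed only for the 4 members of smallest p in each comparison and the called other pathway genes, and not with the crossed block. None of these turned direction. Other members did. For the knockdown in E2, 6 of 16 sterol genes were above 0 with all arrays and 13 without replicate 2 of control siRNA, E2.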
